A study of Mus musculus with 2 samples.

Results

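Lyve1 Folr2 Cd163 macrophages of the mitral valve were studied by droplet single-cell RNA-Seq, with 973 of them among 4313 kept cells. RNA was counted by unique molecular identifiers (UMIs), each standing for 1 captured molecule. Kept cells had between 200 and 5000 genes with a UMI, and mitochondrial transcripts did not exceed 10%. A kept cell was then taken as a macrophage when the 3 C1q genes (C1qa, C1qb and C1qc) gave at least 10 UMIs, Col1a2 and Col3a1 together gave fewer than 5, and Flt3 gave 0. Among these C1q-gated cells, members had at least 3 of 7 genes with a UMI, namely Lyve1, Folr2, Cd163, Vsig4, F13a1, Cd209f and Fcna, called set A below. They also had more set A genes than genes of set B, which holds Cx3cr1, Cd72, Tnfsf13b, Gpr84, Il1a, Slamf7 and Scimp. The cells were thus selected on measured values, and the genes of the selection are given as a description. C1q-gated cells with at least 3 set B genes and more of set B than of set A are called Cx3cr1 Cd72 macrophages and serve for comparison.

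The WT library came from Fbn1+/+ mice. The mgR library came from Fbn1 mgR/mgR mice, which carry on both chromosomes a constitutive hypomorphic allele that lowers the amount of fibrillin-1, the main microfibril protein of connective tissue. The mice were 12 weeks old and untreated, and the heterozygous parents had been bred to C57BL/6J. Cells were freed from the leaflets with collagenase A plus elastase and passed a sort for viability, so that shares of cells can depend on the digestion and the sort as well as on the tissue. There was 1 library per genotype, cells are not mapped to animals, and no test was made. Intervals in parentheses are 95% intervals, and they cover counting error only. The WT library gave 80 members with 528305 UMIs and the mgR library 893 members with 8037600 UMIs, so that WT values are the less precise. Medians per member were 6110 UMIs, 2074 genes and a mitochondrial share of 2.61% in WT, against 8801 UMIs, 2637 genes and 1.64% in mgR. According to the methods only male mice entered comparisons, yet both libraries held cells with UMIs of Xist but of no Y-linked gene (Xist-only cells) and the reverse (Y-only cells). Xist-only cells were 30.0% of WT members and 69.2% of mgR members, and Y-only cells were 43.8% and 19.5%. Over all kept cells, Xist-only cells were 28.1% (WT) and 60.8% (mgR), and Y-only cells were 38.5% and 21.1%. UMIs of neither kind were found in 25.0% of WT and 10.5% of mgR members. Xist-only and Y-only cells were thus mixed in different proportions in the whole libraries, and the main results are also given within each of them. The libraries shared 2 barcodes, each of them a member in at least 1 library.

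Tissue macrophages of the heart and its valves derive from embryonic progenitors and from blood monocytes, and in mice the CCR2-negative cells that carry Lyve1, Folr2 and Timd4 are known as long-lived residents that renew themselves locally. Such cells lie near vessels and matrix, take up dead cells, hyaluronan and iron-containing proteins, and carry little MHC class II, the molecule that shows antigen to helper T cells. Cells with more MHC class II and Cx3cr1 are known as a separate macrophage state that is often replaced from the blood. Residence itself was not measured here, since expression does not show where a cell came from.

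The set A genes, all of them protein coding, have the following roles and places in GRCm38. Lyve1, a receptor for hyaluronan, lies at chr7:110850607-110863239 on the minus strand, and Folr2, the folate receptor β, at chr7:101839988-101857194 on the same strand. Cd163, the scavenger receptor for haptoglobin-bound haemoglobin, lies at chr6:124304656-124330527 on the plus strand. Vsig4, a complement receptor that binds C3 fragments, lies at chrX:96247203-96293438, and F13a1, the A chain of coagulation factor XIII, at chr13:36867178-37050244, both on the minus strand. Cd209f, a C-type lectin, lies at chr8:4102787-4105835, and Fcna, which encodes the complement-activating lectin ficolin A, at chr2:25624666-25628030, again both on the minus strand. Annotated genes on the other strand overlap Folr2, F13a1 and Fcna.

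Promoter sequences are shown for 4 genes of these cells, because the transcription factors PU.1 and MAF are known to govern macrophage genes and Maf itself was higher in these cells than in the Cx3cr1 Cd72 macrophages, as described below. Fcna and Vsig4 belong to set A, and Timd4 and Mrc1 are genes of resident macrophages outside it. Each sequence is the 250 bases before the RefSeq start site in GRCm38.p6, read on the strand of the gene, and capitals mark the PU.1 core GAGGAA or the MAF half-site TGCTGA, on either strand, where they read TTCCTC and TCAGCA on the reverse one. The windows are chr2:25627975-25628224 on the minus strand for Fcna, chrX:96293439-96293688 on the minus strand for Vsig4, chr11:46810549-46810798 on the plus strand for Timd4 and chr2:14229164-14229413 on the plus strand for Mrc1.
Fcna: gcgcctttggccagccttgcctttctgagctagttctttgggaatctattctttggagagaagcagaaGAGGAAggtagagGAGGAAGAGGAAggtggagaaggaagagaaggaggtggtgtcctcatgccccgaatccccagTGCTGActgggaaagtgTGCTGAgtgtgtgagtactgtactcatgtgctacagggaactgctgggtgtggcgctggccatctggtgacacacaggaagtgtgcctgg
Vsig4: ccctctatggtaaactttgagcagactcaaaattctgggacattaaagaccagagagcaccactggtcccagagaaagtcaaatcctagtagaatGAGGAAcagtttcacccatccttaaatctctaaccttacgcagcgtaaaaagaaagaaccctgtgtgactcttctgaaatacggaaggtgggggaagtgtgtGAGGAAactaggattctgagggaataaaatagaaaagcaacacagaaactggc
Timd4: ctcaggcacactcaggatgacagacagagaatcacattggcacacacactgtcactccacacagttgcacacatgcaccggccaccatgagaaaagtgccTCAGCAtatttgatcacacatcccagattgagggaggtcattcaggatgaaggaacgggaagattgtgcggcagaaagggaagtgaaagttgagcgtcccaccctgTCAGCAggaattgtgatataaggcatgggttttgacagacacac
Mrc1: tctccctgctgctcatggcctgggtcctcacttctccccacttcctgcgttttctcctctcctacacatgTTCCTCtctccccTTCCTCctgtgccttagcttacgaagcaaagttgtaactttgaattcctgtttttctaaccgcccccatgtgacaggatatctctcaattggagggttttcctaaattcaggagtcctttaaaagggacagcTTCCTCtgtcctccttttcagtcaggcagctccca
The Fcna window held 3 PU.1 cores and 2 MAF half-sites, that of Vsig4 2 PU.1 cores, that of Timd4 2 MAF half-sites and that of Mrc1 3 PU.1 cores. Each of the 4 windows shown thus held at least 2 motif copies, whereas those of Cd163, Cd209f and Gas6, which are not shown, held 0. Of the 7 set A genes, 6 had an entry, and 3 of these held the PU.1 core and 2 the MAF half-site. These motifs are common. The PU.1 core occurred in the windows of 25.8% of all 27025 genes with an entry, and the MAF half-site in those of 18.0%. Among the genes that were higher in the members than in the Cx3cr1 Cd72 macrophages, 26.4% of 91 with an entry held the PU.1 core and 17.6% the MAF half-site, and among those that were lower the shares were 31.4% and 13.7% of 51. A match of 6 letters describes the window and is no evidence of binding.

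Members made up a larger share of the mgR library than of the WT library. They were 80 of 875 kept WT cells, or 9.14% (7.32 to 11.2), and 893 of 3438 kept mgR cells, or 25.97% (24.5 to 27.5). The difference was 16.8 percentage points (14.3 to 19.2). The intervals of the shares did not overlap. Within the C1q-gated cells alone, members were 80 of 223 WT cells, or 35.9% (29.6 to 42.6), and 893 of 1549 mgR cells, or 57.6% (55.1 to 60.1), with 21.8 points between them (14.6 to 28.5). Cx3cr1 Cd72 macrophages, by contrast, were 9.83% of WT cells and 11.7% of mgR cells, and the interval of that difference, 1.84 points (−0.575 to 4.03), included 0. The remaining C1q-gated cells, which met neither definition, were 6.51% and 7.42%, and their difference of 0.903 points (−1.13 to 2.70) included 0 as well.

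The larger share was also seen within each sex-linked kind of cell and at equal depth. Among Xist-only cells, members were 24 of 246 WT cells (9.76%) and 618 of 2091 mgR cells (29.6%), with 19.8 points between them (15.0 to 23.8). Among Y-only cells, they were 35 of 337 WT cells (10.4%) and 174 of 724 mgR cells (24.03%), with 13.65 points between them (8.79 to 18.1). When set A and set B were read after each C1q-gated cell had been thinned to 3000 UMIs, members were 7.57% (WT) and 24.2% (mgR) of the cells, which is 16.6 points apart (14.2 to 18.8). The direction was thus the same in each of these 3 readings. With 1 library per genotype, genotype, animal, digestion and capture cannot be told apart.

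**Figure D1:**
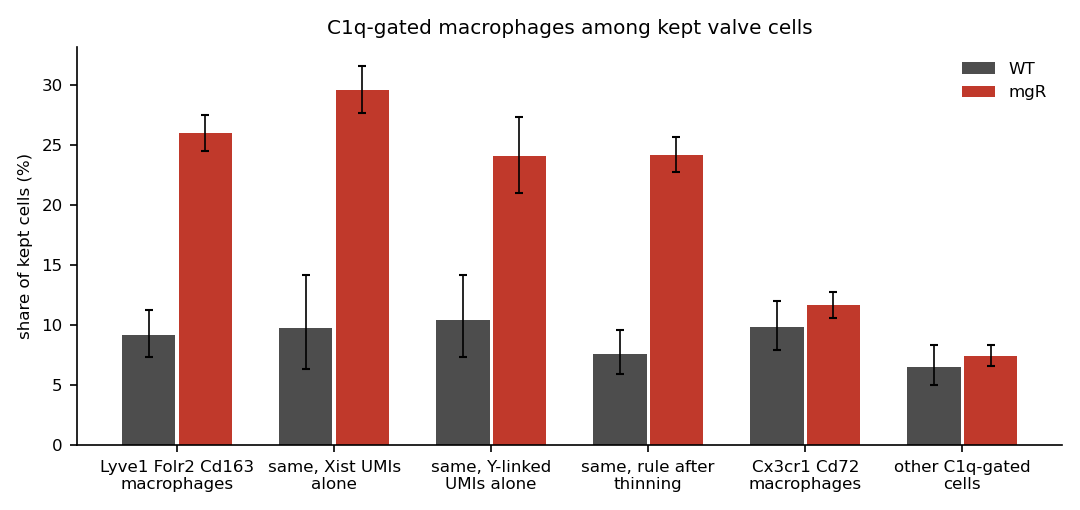
Share of kept cells (%, vertical axis) in the WT (grey) and mgR (red) library for Lyve1 Folr2 Cd163 macrophages, for the same cells within each sex-linked kind and after thinning, and for the other C1q-gated cells. Bars are shares and lines are 95% Clopper-Pearson intervals; the mgR bars of the members stand between 24.03% and 29.6% and the WT bars between 7.57% and 10.4%, while those of the other cells lie close together.

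Cells near the limits of the definition were counted in each library. Exactly 3 set A genes were found in 24 WT members (30.0%) and 122 mgR members (13.7%), and all 7 in 5 WT members and 94 mgR members. Just outside the limit, 8 WT and 40 mgR cells had 2 set A genes and fewer set B genes. A further 7 WT and 69 mgR cells had at least 3 set A genes but as many or more set B genes. No set B gene was found in 26 WT members (32.5%) and 243 mgR members (27.2%). The set A and set B genes therefore did not sort the C1q-gated cells into separate groups without cells between them, as the grid of both counts shows.

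**Figure D2:**
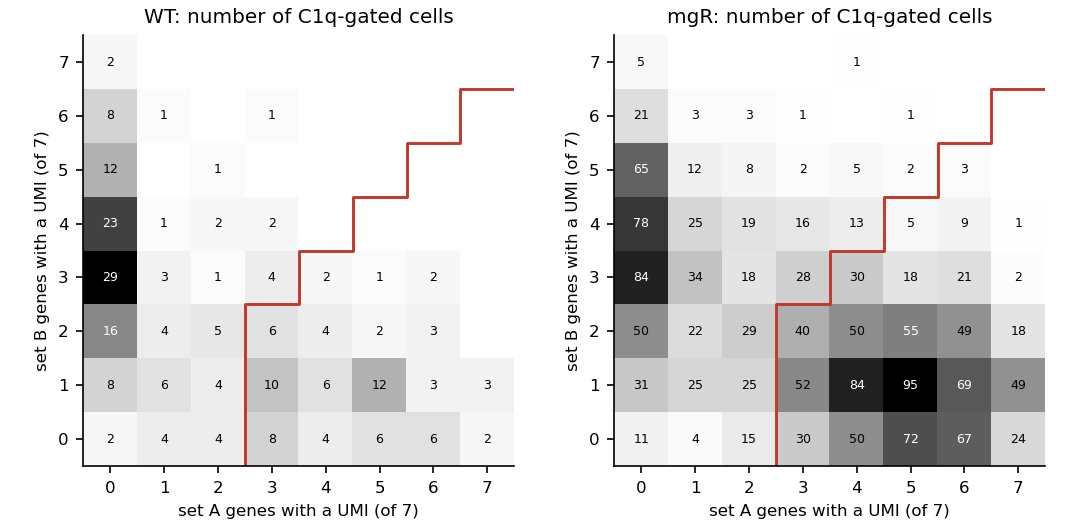
Number of C1q-gated cells (numbers and grey shade, scaled within each panel) by the number of set A genes with a UMI (horizontal axis, of 7) and of set B genes with a UMI (vertical axis, of 7) in the WT and mgR library. The red line bounds the members; in the mgR library the fullest field of the members holds 95 cells with 5 set A genes and 1 set B gene, and fields on the line are filled in both libraries.

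The 7 genes used for selection were found in very different shares of the members. F13a1 had a UMI in 98.8% of WT and 99.6% of mgR members, at 1651 and 2120 CPM (the UMIs of a gene per 1000000 UMIs of all members of the library). Folr2 was found in 76 of 80 WT members and in 98.3% of mgR members, at 916.1 and 1150 CPM, and Lyve1 in 81.2% and 92.8% at 986.2 and 1320 CPM. These 3 genes thus marked most members of both libraries. Fcna was found in 52.5% and 71.9%, Cd163 in 58.8% and 49.7%, Vsig4 in 42.5% and 52.3% and Cd209f in 21.2% and 29.6%. Cd209f was concentrated in few WT cells, since 10 of them held 87.6% of its WT UMIs. Outside the C1q gate each set A gene was found in at most 5.06% of the cells of a library.

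Between the libraries, Cd163 had the lowest ratio of mgR to WT members and Fcna the highest. Cd163 had 275 UMIs (520.5 CPM) in WT members and 2619 UMIs (325.8 CPM) in mgR members, a CPM ratio of mgR to WT of 0.626 (0.553 to 0.711). The ratio was 0.497 in Xist-only members and 0.705 in Y-only members. Fcna had 107 UMIs (202.5 CPM) and 3104 UMIs (386.2 CPM), a ratio of 1.91 (1.57 to 2.33), which was 1.63 and 1.73 within these kinds. Lyve1, F13a1, Vsig4 and Folr2 had ratios of 1.34, 1.28, 1.26 and 1.25, and Cd209f of 1.03 (0.868 to 1.24). Cd209f ran in opposite directions in the kinds of cell, with 0.518 (0.403 to 0.676) in Xist-only and 2.15 (1.54 to 3.07) in Y-only members. Detection of these genes decided which cells were members, so that the values describe the selection as well as the cells.

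Genes of macrophages that the selection did not use were found in most members. Csf1r, the receptor for the growth factor CSF1 that macrophages need, was found in 97.5% of WT and 98.2% of mgR members, at 1075 and 1004 CPM, against 8.44% and 9.26% of cells outside the C1q gate. Adgre1, which encodes F4/80, was found in 86.2% and 89.9%, Cd68 in 91.2% and 95.1%, C5ar1 in 83.8% and 93.4%, and the Fc receptor chain Fcer1g in 100% and 99.7%. The lysozyme gene Lyz2 was found in every member of both libraries, at 16328 and 16021 CPM, but its UMIs were also found in 20.6% and 35.9% of cells outside the gate. Mertk, a receptor for dead cells, was found in 38.8% and 44.8% of members, and Fcgr1 in 41.2% and 51.8%. Flt3, which marks dendritic cells and was 0 in members by definition, was found in 3.99% and 5.13% of cells outside the gate.

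Transcripts of other cell types were low in the members. Over 8 fibroblast markers the summed level was 138 CPM in WT members, with Dcn at 98.4 CPM and with Col5a1 and Mfap5 at 0, and 66.9 CPM in mgR members. The 9 endothelial markers summed to 26.5 and 33.3 CPM, mural markers to 5.68 and 4.36 CPM, and dendritic cell markers to 30.3 and 28.4 CPM with Clec9a at 0 in both. T and NK cell markers summed to 1.89 and 24.4 CPM, B cell markers to 98.4 and 104 CPM, nearly all of it Ighm, and melanocyte markers to 62.5 and 49.4 CPM, nearly all of it Mitf, which macrophages are known to express. Neutrophil markers summed to 18.9 CPM in WT and 140 CPM in mgR members, led there by S100a9 at 68.4 CPM. Red cell markers summed to 206 and 443 CPM, led by Hbb-bs. The doublet caller Scrublet marked 1 WT member and 11 mgR members. The part of these transcripts in the differences between the libraries was not tested.

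Ccr2, the chemokine receptor of recruited monocytes, was near its lower limit. After thinning to 3000 UMIs, 0 of 74 WT members had a Ccr2 UMI, a count that allows up to 4.05%, and 9 of 869 mgR members had one (1.04%, 0.475 to 1.96). Among Cx3cr1 Cd72 macrophages the shares were 13.95% and 10.8%. Without thinning they were 0% and 2.80% of members, with median depths of 6110 and 8801 UMIs, and 11.7% and 10.9% of cells outside the C1q gate, with medians of 4443 and 6406 UMIs. The mgR share of members was thus below that of both other populations. Thinning left out 6 WT and 24 mgR members that were shallower than 3000 UMIs. The monocyte list, which had 2 genes above 100 CPM, was led by S100a6 (335 and 485 CPM) and S100a4 (310 and 405 CPM), which many cell types express.

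Timd4, a receptor for phosphatidylserine on dead cells and a marker of long-lived resident macrophages, was found in a larger share of the members than of the Cx3cr1 Cd72 macrophages. After thinning, 12 of 74 WT members (16.2%, 8.67 to 26.6) and 180 of 869 mgR members (20.7%, 18.1 to 23.6) had a Timd4 UMI. None of 86 WT Cx3cr1 Cd72 macrophages had one, which allows up to 3.49%, and 5 of 399 mgR cells did (1.25%). The difference between the libraries, 4.50 points (−6.23 to 12.6), was not detectable at this depth. In unthinned cells the shares of members were 31.2% and 40.8%, against 2.91% and 3.65% outside the gate. The Timd4 level was 89.0 CPM in WT and 92.4 CPM in mgR members.

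Members differed from Cx3cr1 Cd72 macrophages of the same library in scavenging, complement and MHC class II genes. Among 1528 genes with at least 100 CPM in either population of each library, 123 (8.05%) were at least 2-fold higher in members in both libraries and 70 (4.58%) at least 2-fold lower. Sets A and B and the gate genes were left out. The cells were chosen from the same data, so that this is a description. The median log2 ratio over all genes compared was 0.10 for WT and 0.029 for mgR, and the lists below are read beside these medians.

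The 12 genes with the highest ratios held chemokines, lectins and a complement gene. Ednrb, the endothelin B receptor, had 162.8 CPM in WT and 200.2 CPM in mgR members against 0 and 1.12 CPM in Cx3cr1 Cd72 macrophages, at least 32.3-fold higher in the WT library, counting 3 UMIs for the group at 0, and 179-fold higher (69.8 to 657.5) in the mgR library. Ccl24, a chemokine for eosinophils, had 196.9 and 304.3 CPM against 0 and 5.59 CPM, at least 39.1-fold and 54.4-fold higher. C4b, a complement component, had 204.4 and 369.5 CPM against 0 and 15.7 CPM, at least 40.6-fold and 23.6-fold higher. For each of these 3 genes the comparison cells were at or near 0 in both libraries. C4b was not confined to the members, since cells outside the C1q gate had 464 and 341 CPM. Ccl8 had 1054 and 1582 CPM against 13.4 and 98.2 CPM, 78.5-fold and 16.1-fold higher. Colec12, a scavenger receptor of the collectin family, was 38.4-fold and 18.7-fold higher, and Gas6, the bridge between dead cells and the receptors Axl and Mertk, was 14.7-fold and 6.85-fold higher. Cells outside the gate also had Colec12, at 229 and 162 CPM, and Gas6, at 398.5 and 508 CPM. Cbr2 (carbonyl reductase 2), Tns1 (tensin 1), Ccl6, Clec10a and Wfdc17 were 6.58- to 16.9-fold higher. Retnla, which encodes RELMα, had 2027 CPM in WT members, from only 7 cells, and 494.9 CPM in mgR members against 0 and 20.4 CPM, at least 403-fold and 24.2-fold higher, and it was at 0 in WT Y-only members.

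**Figure D3:**
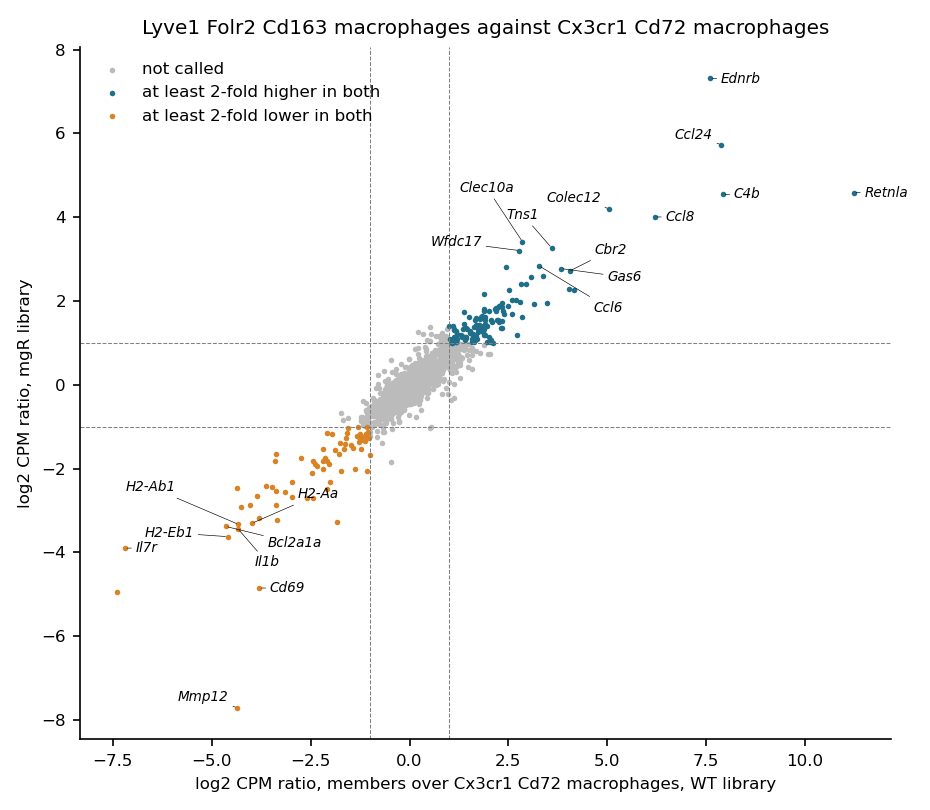
Log2 CPM ratio of Lyve1 Folr2 Cd163 macrophages over Cx3cr1 Cd72 macrophages in the WT library (horizontal axis) and in the mgR library (vertical axis), 1 point per gene, for 1528 genes. Dashed lines mark 2-fold; 123 blue points are higher and 70 orange points lower in both libraries, with Ednrb, Ccl24, C4b and Retnla farthest to the upper right and Mmp12 lowest. Points of genes at 0 in a population depend on the prior count of 0.5.

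The genes that were lowest in the members were MHC class II and inflammatory genes. H2-Ab1, H2-Aa and H2-Eb1, which encode the MHC class II chains, had 410.7, 486.5 and 363.4 CPM in WT members against 8267, 7722 and 8850 CPM in WT Cx3cr1 Cd72 macrophages. In the mgR library they had 581.8, 580.8 and 477.8 CPM in members against 5858, 5754 and 5898 CPM. The ratios were thus 0.0411 to 0.0630 for WT and 0.0810 to 0.101 for mgR. Mmp12, the macrophage elastase, had 34.1 and 1.12 CPM in members against 718 and 247 CPM, ratios of 0.0474 and 0.00453. Il1b, the gene for interleukin-1β, had 157 and 163 CPM against 3194 and 1771 CPM. Bcl2a1a, which has near-identical copies and is therefore uncertain, and Cd69 were low as well, with ratios of 0.0374 and 0.0956 and of 0.0645 and 0.0341. Il7r was at 0 in WT members, so that it was at least 24.2-fold higher in WT Cx3cr1 Cd72 macrophages, and its 71 mgR UMIs came from 10 members. AA467197, a gene named after a clone and left out of the ranking with the predicted genes, had 0 and 6.10 CPM against 157.8 and 189.1 CPM, and it is named here after its values were seen.

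Pathway lists were compared by the number of their genes that were at least 2-fold different in both libraries. The lists were chosen with earlier results of these data known, so that the counts are a description. Of 20 genes of resident macrophages outside set A, 16 were higher and 0 lower, with median log2 ratios of 2.85 in the WT and 2.77 in the mgR library. Retnla, with WT UMIs from only 7 cells, is among the 16. The mannose receptor gene Mrc1 had 1819 and 1792 CPM against 263.5 and 452.8 CPM, and Selenop, a selenium carrier, had 2909 and 2881 CPM against 574 and 739.5 CPM. Ednrb, Ccl24, C4b, Gas6 and Cbr2, described above, belong to this or the next lists. Of 13 scavenger and endocytic receptor genes, 9 were higher and 0 lower, among them Stab1 (4.67- and 2.902-fold), Fcgrt, the receptor that recycles IgG and albumin (8.48- and 5.95-fold), Msr1, Cd36, Colec12, Dab2, Clec10a and Ap2a2. Most genes of this scavenger and endocytic list thus stood higher in the members than in the comparison cells. Of 6 complement genes, 3 were higher and 0 lower, among them C4b and Cfp, which encodes the complement activator properdin (4.83- and 2.85-fold).

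Iron, lysosome and lipid genes were also higher, in smaller numbers. Of 7 iron and haem genes, 2 were higher. These were Hmox1, the haem-degrading enzyme, with 3080 and 2181 CPM against 543.8 and 589 CPM (5.66- and 3.70-fold), and Trf, which encodes transferrin (2.45- and 2.28-fold). The light and heavy ferritin genes Ftl1 and Fth1 had ratios between 0.784 and 1.31. Of 20 lysosome genes, 4 were higher, the proteases Ctsb, Ctsd and Ctsl and the granulin gene Grn, and 0 were lower. Of 8 lipid genes, 5 were higher and 2 lower. Apoe had 31126 and 24249 CPM against 7343 and 8594 CPM (4.24- and 2.82-fold), whereas Cd9 was at 0.166 and 0.154 and Lgals3 at 0.395 and 0.431 of the level of the comparison cells. Of 11 genes for the uptake of dead cells, Gas6, Pros1 and the cholesterol exporter Abca1 were higher and the receptor gene Axl was lower (0.312 and 0.347). Mertk, below 100 CPM in both libraries, had 92.8 and 79.0 CPM against 11.8 and 29.9 CPM.

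Secreted factors were divided. Of 16 chemokine genes, 6 were higher (Ccl6, Ccl7, Ccl8, Ccl9, Ccl24 and Pf4) and 4 lower. Ccl5, which attracts T cells, was at 0.180 and 0.233, and Cxcl10, a chemokine induced by interferon, at 0.410 and 0.389 of the level of the comparison cells. Of 12 growth and repair genes, 5 were higher and Pdgfb was lower. Hbegf, an EGF receptor ligand, was 7.96- and 5.28-fold higher, and Igfbp4, which binds IGF, 9.02- and 3.80-fold. Timp2, an inhibitor of matrix metalloproteinases, had 1126 and 1492 CPM against 323.9 and 484.1 CPM. Of 4 matrix and remodelling genes, Timp2 was higher, and Mmp12 and Mmp14 were lower. Of 10 inflammatory cytokine genes, 0 were higher and 2 lower, Il1b and Tnip3. Tnf, at 0.561 and 0.612, did not pass 2-fold.

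Regulators and receptors differed less. Of 15 transcription factor genes, Maf (4.51- and 3.501-fold) and Klf4 (3.67- and 3.52-fold) were higher and 0 lower, whereas Spi1, which encodes PU.1, was at 0.685 and 0.819. Of 17 immediate early and heat shock genes, 3 were higher, Jun, Ier3 and Hspa1a. Of 7 interferon-stimulated genes, Ifitm3 was higher. Of 11 cytokine receptor genes and of 9 genes of the TGF-β pathway, Tgfbr1, the type I TGF-β receptor held by both lists, was lower (0.326 and 0.413). None of 6 integrin, 3 mTOR pathway and 6 mTORC1-responsive genes passed 2-fold in both libraries, and of 2 recruited monocyte genes neither did. Of 3 cell cycle genes, Stmn1 was lower, at 0.244 and 0.202. Of 7 MHC class II genes, 6 were lower, with median log2 ratios of −3.36 and −3.04.

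The members were not uniform, and their MHC class II genes differed widely from cell to cell. After thinning to 3000 UMIs, 37 of 74 WT members and 488 of 869 mgR members (56.2%) had 0 UMIs of H2-Aa, H2-Ab1 and H2-Eb1 together. At the other end, 6 WT members (8.11%) and 88 mgR members (10.1%) had 20 or more, up to 58 and 133. Between these ends, 7 to 19 UMIs were found in 3 WT and 68 mgR members, and 5 to 6 UMIs, just above the limit used next, in 4 and 19. Members with fewer than 5 such UMIs made up 82.4% (71.8 to 90.3) of WT members and 79.9% (77.0 to 82.5) of mgR members. The counting interval of the difference, −2.57 points (−10.9 to 8.35), included 0. In unthinned members the shares came to 75.0% and 75.8%. Among Cx3cr1 Cd72 macrophages 10.5% and 23.3% had so few. The class below 5 UMIs is a range and not a cell type, and 6 WT and 26 mgR members lay just below it with 3 to 4 UMIs.

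Members with 5 or more MHC class II UMIs, 13 WT and 175 mgR cells, had less of several resident genes than the other members. Vsig4 had 71.5 CPM in these WT cells and 409 CPM in the other WT members, a ratio of 0.175 (0.0633 to 0.388), and the ratio in the mgR library was 0.445 (0.395 to 0.499). Lyve1 had ratios of 0.474 and 0.551, Colec12 of 0.557 and 0.511, Mrc1 of 0.630 and 0.753, and Ctsd, which encodes cathepsin D, of 0.429 and 0.532. Each of these genes was lower in the cells with more MHC class II in both libraries, though the WT interval of Colec12 (0.259 to 1.07) included 1. Vsig4 and Lyve1 belong to set A, which was used to select the members. Of the rest of set A, Cd163 stood at 0.636 and 0.644, Fcna at 0.741 and 0.487, F13a1 at 0.805 and 0.697, and Folr2 at 0.783 and 0.828. Cd209f stood at 1.20 (0.752 to 1.85) in WT and 0.618 in mgR. Over the 7 set B genes, also used in the selection, the median log2 ratio was 0.92 in WT and 0.69 in mgR. Cx3cr1, a gene of set B, was not higher. It had 0 UMIs against 47 in the other WT members, and a ratio of 0.859 (0.660 to 1.11) in mgR. Over 27 resident macrophage genes outside set A the median log2 ratio was −0.16 in WT and −0.40 in mgR. Cd74, the invariant chain that is loaded with MHC class II and did not define the split, was 18.8-fold and 29.2-fold higher, and H2-DMb1 and H2-DMa were 3.62- and 6.596-fold and 2.63- and 4.27-fold higher. Il1b was 2.07- and 3.03-fold higher, Vcam1 2.80- and 1.70-fold and Cd52 2.41- and 2.14-fold. Ciita, the master regulator of MHC class II genes, had 35.8 CPM against 0 in WT members, from 3 UMIs, and 15.2 against 0.917 CPM in mgR members. Timd4 had ratios of 1.21 (0.516 to 2.56) and 0.765 (0.617 to 0.941). Ccr2 was at 0 in both WT classes and at 12.5 and 4.12 CPM in the mgR classes, 3.02-fold higher (1.57 to 5.69) with more MHC class II. Marker lists of other cells moved with this split. Over 4 dendritic cell markers the median log2 ratio was 1.64 in the mgR library, and over 12 recruited monocyte genes it was 0.44. For WT both medians were 2.36, which is the value of a gene with 0 UMIs in both classes. Other marker lists ran the other way in the mgR library. The median was −4.67 over 5 neutrophil, −2.69 over 4 red cell, −2.34 over 5 T and NK cell and −1.63 over 2 mural markers. The part of all these transcripts in the split was not tested.

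MHC class II was highest in the members with the fewest set A genes. From members with 3 to members with 7 set A genes, the summed level of H2-Aa, H2-Ab1 and H2-Eb1 was 2815, 610, 1108, 738 and 158 CPM for WT and 5560, 1943, 1084, 599 and 1077 CPM for mgR. From 3 to 7 genes the level did not fall at each step. Timd4 had 39.8, 53.8, 79.7, 147.7 and 211 CPM in the WT library, from 5 to 17 UMIs each, and 16.1, 44.1, 92.9, 143.0 and 142 CPM in the mgR library. Cbr2 had 485, 610, 702, 1008 and 846 CPM in the WT and 871, 1045, 1077, 1195 and 1123 CPM in the mgR library. The number of set A genes moved with depth, since the median UMIs of a cell ran from 6968 at 3 genes to 9935 at 7 genes in the mgR library and lay between 5398 and 9168 in the WT library. The part of depth in these levels was not tested. Cells just outside the limit, with 2 set A genes, had 2011 and 7045 CPM of the MHC class II genes, 0 and 29.4 CPM of Timd4, and 702 and 542 CPM of Cbr2.

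**Figure D4:**
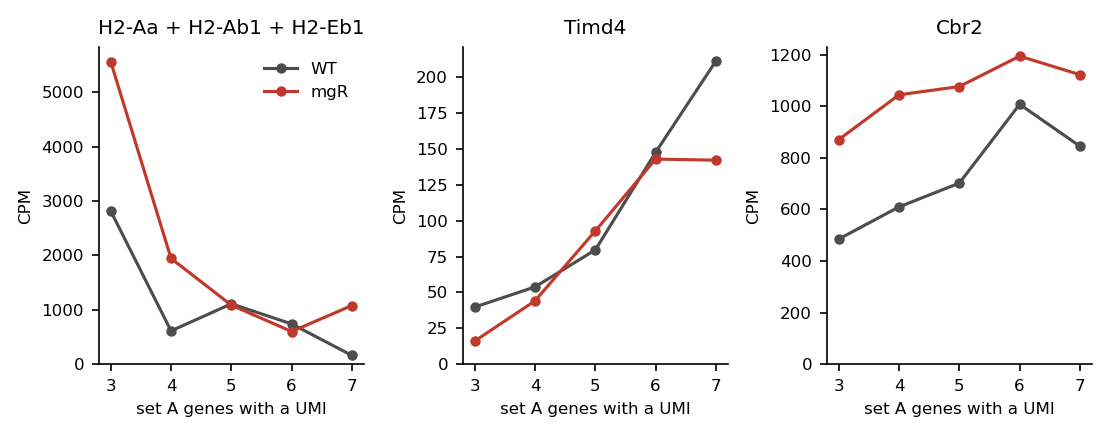
Level (CPM, vertical axes from 0) of the summed MHC class II genes H2-Aa, H2-Ab1 and H2-Eb1, of Timd4 and of Cbr2 in members with 3 to 7 set A genes (horizontal axes) in the WT (grey) and mgR (red) library, 1 point per number of genes and library. The MHC class II level is highest at 3 set A genes (2815 and 5560 CPM), and Timd4 runs from 39.8 and 16.1 CPM at 3 genes to 211 and 142 CPM at 7 genes.

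Transcripts of dividing cells were rare. After thinning, 3 of 74 WT members (4.05%, 0.844 to 11.4) and 80 of 869 mgR members (9.21%, 7.37 to 11.3) had a UMI of Mki67, Top2a, Cdk1, Birc5 or Ube2c, genes used in mitosis and DNA replication. The counting interval of the difference, 5.15 points (−2.42 to 8.999), included 0. In unthinned members the shares came to 13.8% and 18.4%. At least 3 such UMIs were found in 0 WT members and 8 mgR members (0.921%). These 8 cells had a median of 6 set A genes, against 5 in the other 861 mgR members of this depth. Lyve1 was at 451 CPM against 1334 CPM in the others, Folr2 at 484 against 1158 CPM and F13a1 at 1336 against 2132 CPM. Of set A, Fcna alone was higher in the 8 cells, at 526 against 383.5 CPM. They had no Timd4 UMI, and the others had 93.3 CPM. The part of depth in the number of set A genes was not tested. Among Cx3cr1 Cd72 macrophages 10.5% and 16.5% had a UMI of the 5 genes.

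Fbn1, the gene that carries the mgR allele, at chr2:125300594-125507993 on the minus strand, had 2 UMIs in WT members and 6 in mgR members, so that these cells do not check the genotype labels. Outside the C1q gate Fbn1 had 100.4 CPM in the WT and 78.9 CPM in the mgR library. Gene expression of the members was then compared between the libraries. Of 1683 genes that reached 100 CPM in WT or mgR members, 81 (4.81%) had a CPM ratio of mgR to WT of at least 1.5 and 102 (6.06%) a ratio of at most 1/1.5, both read from log2 ratios with a prior count of 0.5. The median log2 ratio of these genes was 0.017. The lists below are described by the same counts, over their genes at 100 CPM or more, and by the median over all their genes with at least 10 UMIs. Each direction has no replicate check.

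The 12 genes lowest in the mgR members included chemokine, cytokine and stress genes. Plaur, the urokinase receptor (chr7:24462484-24475968, plus strand), had 324 CPM in WT and 147 CPM in mgR members, a ratio of 0.455 (0.387 to 0.537). The ratio was 0.472 in Xist-only members, 0.395 in Y-only members and 0.418 in Cx3cr1 Cd72 macrophages, and a Plaur UMI was found in 52.7% of WT and 32.9% of mgR members after thinning. Plaur was thus lower in the mgR library in each of these readings. Il10, the gene for interleukin-10 (chr1:131019845-131024974, plus strand), had 197 and 84.2 CPM, a ratio of 0.428 (0.348 to 0.531), with 0.584 and 0.314 within the kinds and 0.366 in the comparison cells. Cxcl10 had 972.9 and 407.1 CPM, a ratio of 0.418 (0.381 to 0.460), with 0.438 and 0.372 within the kinds and 0.441 in the comparison cells. Both were lower in either kind of cell and in the comparison cells, so that neither difference was confined to the members. However, 10 WT members held 73.1% of the WT UMIs of Il10 and 72.8% of those of Cxcl10. After thinning, Il10 was found in 18.9% (10.8 to 29.7) of WT and 12.2% (10.1 to 14.6) of mgR members. Cxcl10 was found in 36.5% (25.6 to 48.5) and 27.0% (24.1 to 30.1), and for both genes the intervals overlapped. Ptgs2, which encodes cyclooxygenase-2 (chr1:150100031-150108227, plus strand), had 136 and 30.6 CPM, a ratio of 0.225 (0.172 to 0.296), against 0.578 (0.468 to 0.719) in the comparison cells, and 10 WT members held 84.7% of its WT UMIs. Irs2, an insulin receptor substrate, had 136 and 69.3 CPM, a ratio of 0.509 (0.397 to 0.659), against 1.43 (0.743 to 3.10) in the comparison cells.

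Several of these genes rested on few WT cells or differed between the kinds of cell. Ifnb1, the interferon-β gene, had 149.5 and 9.70 CPM, a ratio of 0.0649, but its 79 WT UMIs came from 4 cells. Rsad2, an interferon-induced antiviral gene, had 325.6 and 82.6 CPM, a ratio of 0.254, with 0.925 in Xist-only members and 0.182 in Y-only members, and 10 WT cells held 96.5% of its WT UMIs. Hspa1a, a heat shock gene, had 308.5 and 143 CPM, a ratio of 0.464, with 0.194 and 1.07 within the kinds. For these 3 genes the library value was carried by a part of the cells. Retnla, Ccl12, Spic and Il1rn had ratios of 0.244, 0.496, 0.337 and 0.420, and each ran in opposite directions in the kinds of cell. After thinning, Retnla was found in 8.11% of WT and 12.1% of mgR members and Ccl12 in 17.6% and 25.2%, against the direction of their CPM, so that no order is read from either, and where the lists below count them as lower this is by CPM alone.

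The 12 genes highest in the mgR members had smaller ratios, apart from Lyz1. C4b (chr17:34728380-34743882, minus strand) had 204.4 CPM in WT and 369.5 CPM in mgR members, a ratio of 1.81 (1.49 to 2.21), with 1.98 and 1.55 within the kinds, and a C4b UMI was found in 33.8% and 48.4% of members after thinning. Tmem50a, a membrane protein gene, had 157 and 317 CPM, a ratio of 2.02 (1.62 to 2.54), with 1.60 (1.30 to 2.004) in the comparison cells. Necap2, which encodes a protein of clathrin-coated vesicles (chr4:141066512-141078357, minus strand), had 75.7 and 154.9 CPM, a ratio of 2.05 (1.49 to 2.88), against 0.971 (0.741 to 1.29) in the comparison cells. The intervals of Necap2 in the members and in the comparison cells did not overlap, whereas those of Tmem50a did. Hacd4 (1.88), Prr13 (1.79), Prdx2, a peroxidase (1.77), and Use1 (1.74) had ratios of 1.44 to 1.75 in the comparison cells as well. Fcna is a gene of set A. Lyz1 had 5 UMIs in WT and 1073 in mgR members, a ratio of 14.1 (6.03 to 43.5), but 10 mgR cells held 60.9% of its UMIs, and reads can be split between it and its close copy Lyz2. Atp5o (2.06) and Pgls (1.75) share a strand and positions with another annotated gene and are uncertain for this reason.

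**Figure D5:**
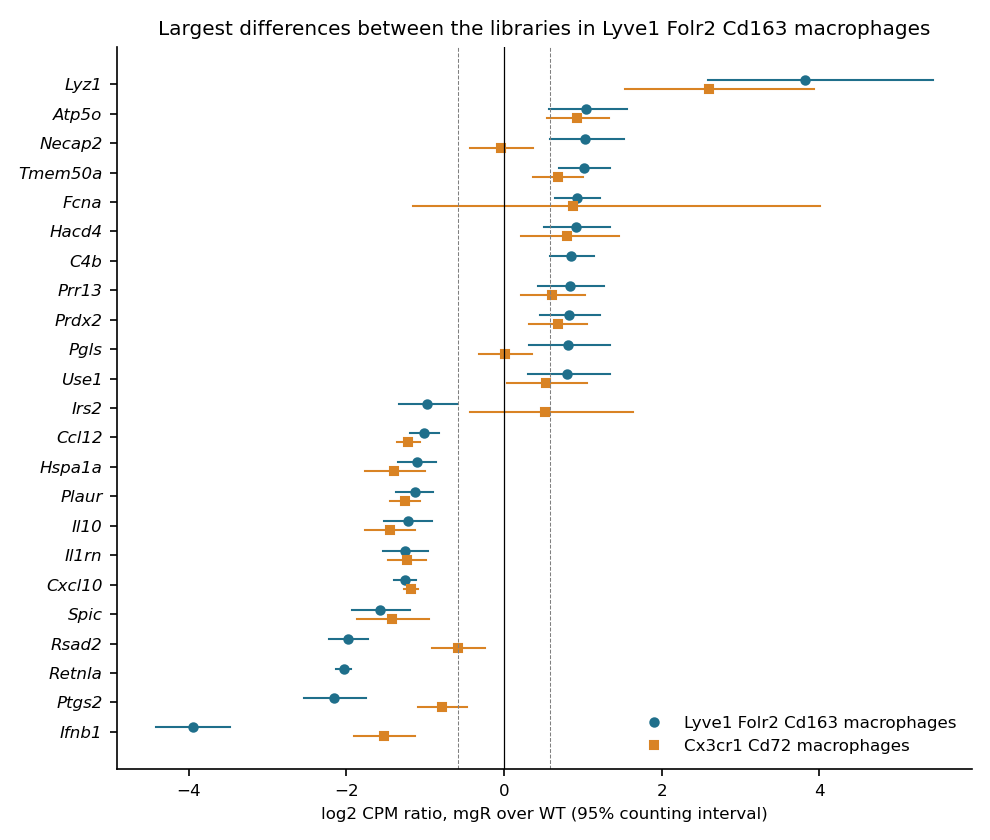
Log2 CPM ratio of mgR over WT (horizontal axis) in Lyve1 Folr2 Cd163 macrophages (blue circles) and in Cx3cr1 Cd72 macrophages (orange squares) for 11 of the 12 highest and the 12 lowest genes of the former. Lines are 95% counting intervals and dashed lines mark 1.5-fold; most genes lie on the same side in both populations, Necap2, Pgls and Irs2 are near 0 or on the other side in the latter, and no square is drawn for C4b and Retnla, which had 0 UMIs in WT Cx3cr1 Cd72 macrophages.

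Resident and scavenger genes were mostly alike in the libraries. Of 21 resident macrophage genes, 3 were higher in the mgR library (Cbr2, Ccl24 and Ltc4s), 1 was lower (Retnla, by CPM alone) and 17 were within 1.5-fold, with a median log2 ratio of 0.075. Cbr2 had 707.9 and 1084 CPM, a ratio of 1.53 (1.38 to 1.70), with 1.47 in both kinds of cell. In Cx3cr1 Cd72 macrophages its ratio was larger, 3.93 (2.63 to 6.12), so that the difference was not confined to the members. Mrc1 had a ratio of 0.985 (0.923 to 1.05) and Selenop of 0.990 (0.941 to 1.04), but Selenop stood at 0.764 (0.701 to 0.833) in Xist-only and 1.05 in Y-only members. In Cx3cr1 Cd72 macrophages the ratios were 1.72 (1.46 to 2.04) for Mrc1 and 1.29 (1.15 to 1.45) for Selenop. These comparison cells also held more set A transcripts in the mgR library. Their mean number of set A genes was 0.256 in WT and 0.638 in mgR, and Folr2 was found in 5.81% and 22.2% of them. The part of this in the ratios of Cbr2, Mrc1 and Selenop there was not tested. Of 14 scavenger receptor genes, 0 were past 1.5-fold in either direction, and the median log2 ratio was −0.0040. Stab1, a receptor for altered lipoproteins, had a ratio of 0.891. Of 6 MHC class II genes 0 were past 1.5-fold, with H2-Aa at 1.19 in all members, 0.603 in Xist-only members and 2.28 in Y-only members. Of 10 genes for the uptake of dead cells 0 were past 1.5-fold, and Gas6 had a ratio of 1.26 (1.11 to 1.43).

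Of 6 complement genes, C4b was higher and 0 were lower. Of 11 iron and haem genes, Spic, a transcription factor of iron-recycling macrophages, and Slc11a2 (0.631) were lower, and the median log2 ratio was −0.22. Hmox1 had 3080 and 2181 CPM, a ratio of 0.708 (0.673 to 0.746), with 0.762 and 0.655 within the kinds. Of 20 lysosome genes, Ctsl, which encodes cathepsin L, was lower (0.656, with 0.790 and 0.501 within the kinds). Of 7 lipid genes 0 were past 1.5-fold, with Apoe at 0.779. Of 12 growth and repair genes, Pdgfb (0.644) and Areg (0.627) were lower, although Areg had a ratio of 2.71 in Xist-only members and 10 WT members held all of its WT UMIs. Of 3 matrix and remodelling genes at this level 0 were past 1.5-fold.

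Chemokines were divided between the libraries. Of 15 chemokine genes, Ccl6 (1.57) and Ccl24 (1.55) were higher and Ccl4 (0.567), Ccl5 (0.452), Ccl12 (by CPM alone) and Cxcl10 were lower, with a median log2 ratio of −0.35. All 84 WT UMIs of Ccl5 came from 4 cells. Its ratio was 2.42 (0.937 to 8.92) in Xist-only members, and in Y-only members it had 0 UMIs in WT and 105 CPM in mgR, at least 9.202-fold higher, so that the library value ran against both kinds. Ccl4, a chemokine for monocytes and T cells, had 6949 and 3943 CPM, with ratios of 0.682 and 0.420 within the kinds and 0.416 in Cx3cr1 Cd72 macrophages. Ccl8 had 1054 and 1582 CPM, a ratio just short of 1.5 (1.38 to 1.64), and Ccl2, the main CCR2 ligand, had 4164 and 3180 CPM, a ratio of 0.764 (0.731 to 0.798). Ccl24 was lower in Xist-only members (0.855) and higher in Y-only members (1.89). Ccl6 had ratios of 1.74 and 1.12 within the kinds and 2.14 (1.72 to 2.70) in Cx3cr1 Cd72 macrophages. Of 10 inflammatory cytokine genes, 0 were higher and 4 lower, namely Il10, Il1rn, Ptgs2 and Tnfaip3 (0.543). Tnfaip3, which restrains NF-κB, was at 0.488 and 0.492 within the kinds. Tnf had a ratio of 0.824. Il1b had 1.04 over all members, with 1.76 (1.07 to 3.16) in Xist-only and 0.469 (0.339 to 0.658) in Y-only members.

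Several immediate early genes, which respond within minutes and also during tissue digestion, were lower in the mgR members. Of 18 genes of the immediate early and heat shock list, 0 were higher and 6 lower, namely Fos (0.647), Junb (0.653), Egr1 (0.668), Zfp36 (0.630), Btg2 (0.510) and Hspa1a (0.464), with a median log2 ratio of −0.49 over 19 genes. Egr1 lay at the limit and passed it on the log2 scale with the prior count. Apart from Hspa1a, these genes were below 0.7 within each sex-linked kind as well. Junb had 3123 and 2038 CPM in members against 2048 and 1849 CPM in Cx3cr1 Cd72 macrophages. Of 7 interferon-stimulated genes, Ifit1 (0.512), Isg15 (0.646) and Rsad2 were lower. The median log2 ratio over 16 such genes was −0.26, and 10 WT members held 98.6% of the WT UMIs of Ifit1. Ifi27l2a, with 2985 and 3221 CPM, had a ratio of 1.08. The part of digestion in these differences was not tested.

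Few integrin, TGF-β and mTOR genes, which the study asked about, reached 100 CPM, and below that level genes entered the list medians alone. The median log2 ratio was −0.086 over 12 integrin, −0.20 over 17 TGF-β pathway and −0.080 over 28 mTOR pathway genes with at least 10 UMIs. The genes that reached 100 CPM were 6 of 16 integrin genes, 9 of 20 TGF-β pathway genes, 4 of 28 mTOR pathway genes and 9 of 28 mTORC1-responsive genes. Of the 6 integrin genes 0 were past 1.5-fold, and Itgb1, which encodes β1 integrin, had 511 and 452 CPM, a ratio of 0.884 (0.781 to 1.004). Of 9 TGF-β pathway genes, Tgif1, a repressor of SMAD signaling, was lower (0.653), and the ligand gene Tgfb1 had a ratio of 0.796 (0.681 to 0.934). Of 4 mTOR pathway genes 0 were past 1.5-fold. Rheb, the activator of mTORC1, had 138 and 160 CPM, a ratio of 1.16 (0.916 to 1.49). Of 9 mTORC1-responsive genes, Hk2 (0.591) and Insig1 (0.558), which encode hexokinase 2 and a regulator of sterol synthesis, were lower, and the median log2 ratio over 25 such genes was −0.30. Of 13 cytokine receptor genes, Csf2ra (1.52) was higher and Il4ra (0.589) lower. Of 15 transcription factor genes, Spic was lower, and Maf (1.22) was within 1.5-fold. Of the 2 cell cycle genes and the 2 monocyte genes at this level, 0 were past 1.5-fold. Over the 12 monocyte genes with at least 10 UMIs, most of them near 0, the median log2 ratio was 1.51, beside the neutrophil marker sums of 18.9 and 140 CPM given above.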

How the data were processed

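Deposited files held raw UMI counts per gene and barcode, which the authors made with Cell Ranger 7.1.0 on mm10 according to the submitters' processing notes. The annotation and the handling of introns are not given in the sources used here. There was 1 library per genotype, of 5381844 UMIs in 1104 WT barcodes and 28215539 UMIs in 3802 mgR barcodes. Counts were read with Python 3.11.15, scanpy 1.11.5 and scipy 1.17.1. Members and gene lists were chosen with earlier results of these data known.

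UMIs were summed over the members of a library and scaled to 1000000 (CPM). Genes were compared at 100 CPM or more in a library, with a limit of 1.5-fold between libraries and of 2-fold, in both libraries, against Cx3cr1 Cd72 macrophages, and with a prior count of 0.5 for log2 values. Lists used genes with at least 10 UMIs. No test was made, since cells of 1 library are no replicates. Intervals are 95% intervals, Clopper-Pearson for shares, exact Poisson for sums, conditional binomial for ratios, and combined from both shares for differences. A group at 0 was given 3 counts for a bound. Shares of cells with a UMI were compared after thinning to 3000 UMIs per cell. Cells were classed by UMIs of Xist or of the Y-linked genes Ddx3y, Uty, Kdm5d and Eif2s3y. Scrublet marks were recorded, and marked cells were kept. The calling scripts were tested on simulated data. Those counts were drawn without variation from cell to cell, so that the test does not cover genes whose UMIs lie in few cells.

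Named genes were the 12 highest and 12 lowest ratios between libraries, and the 12 highest and 8 lowest ratios against Cx3cr1 Cd72 macrophages, leaving out mitochondrial, ribosomal, haemoglobin, predicted and clone-named genes. Other genes were named from the lists. Some genes that these rules name are not reported here. Positions come from GENCODE vM21 (GRCm38), in which 32158 of 32285 features were matched, and promoters from RefSeq (GRCm38.p6), in which Lyve1 and Ccl24 have no entry. Alternatives were other limits on set A, C1q and mitochondrial transcripts, leaving out Scrublet-marked cells, each sex-linked kind alone, per-cell means, thinning, scaling by the median ratio, and other limits on low genes. The split by MHC class II, the thinned shares of named genes and the motif shares were added after seeing the data.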

Additional observations from a re-analysis of the deposited data

Results flagged for a closer look

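Between Xist-only members, which had UMIs of Xist but of no Y-linked gene, and Y-only members, 9 of the named genes lay past 1.5-fold in opposite directions from WT to mgR. A ratio against 0 UMIs was read by the lower bound of its interval. These differences between the kinds were not tested. Retnla had an mgR to WT ratio of 0.0547 in Xist-only members, where 6 of 24 WT cells held 1037 UMIs. In Y-only members it had 0 UMIs in 35 WT cells and 1309 UMIs in 29 of 174 mgR cells, at least 70.0-fold higher in mgR.

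Spic had ratios of 1.98 (0.668 to 9.66) and 0.299, and its WT value in Xist-only members rested on 3 UMIs in 2 cells. Il1rn had ratios of 13.55 (2.42 to 536) and 0.259, with 1 WT UMI in Xist-only members and 101 in 11 Y-only cells. Ccl12 had ratios of 4.68 and 0.309, with 8 UMIs in 7 WT cells of the former kind and 183 in 12 of the latter, of which 1 cell held 142. In WT Xist-only members, Spic, Il1rn and Ccl12 thus had at most 8 UMIs each.

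Clec10a had ratios of 0.478 (0.337 to 0.700) in Xist-only and 2.46 (1.26 to 5.50) in Y-only members, and Cd209f had 0.518 and 2.15. H2-Aa had 0.603 and 2.28, in the same order. Il1b ran the other way, with 1.76 and 0.469, and so did Areg, with 2.71 (0.918 to 13.2) and 0.465. Over all WT members, 10 cells held 68.5% of the UMIs of Clec10a, 87.6% of those of Cd209f, 80.2% of those of H2-Aa, 79.5% of those of Il1b and 100% of those of Areg. H2-Eb1 (0.786 and 2.46), Ccl24 (0.855 and 1.89) and Hspa1a (0.194 and 1.07) also lay on either side of 1, though not past 1.5-fold in both kinds.

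Dcn, a gene of fibroblasts, had an mgR to WT ratio of 0.469 (0.350 to 0.640) in the members and of 4.12 (2.37 to 7.81) in Cx3cr1 Cd72 macrophages. It had 52 UMIs in WT members, from 11 cells, and 13 in WT Cx3cr1 Cd72 macrophages, and outside the C1q gate it had 10379 and 10518 CPM. This difference was not tested either.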

How the results depend on the processing

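The difference in share of kept cells was 19.8 points in Xist-only cells and 13.65 points in Y-only cells, against 16.8 points over all cells, and it kept its direction under every alternative run. Of the main results, 67 values stayed within the spread or count limit and 23 moved. The genes higher and lower in mgR members numbered 188 and 249 in Xist-only cells, of which 54 and 63 were among the 81 and 102 found over all members. In Y-only cells they numbered 189 and 192, of which 58 and 74 were shared. Thinning gave 131 higher genes. A limit of 50 CPM gave 184 and 202 genes between the libraries and 220 and 115 against Cx3cr1 Cd72 macrophages, and a limit of 10 UMIs gave 1920 and 1980 and 418 and 255. By the construction of these limits, more genes were compared. Of the lists, 1, that of recruited monocyte genes, had a median past 1.5-fold higher and 0 lower. The number higher was 2 with at least 4 set A genes, with at least 20 C1q UMIs and with a mitochondrial limit of 5%, 0 in Xist-only cells and 3 in Y-only cells. The number lower was 1 within either kind and with per-cell means.

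Among single genes 749 values stayed, 105 moved and 6 reversed. In Xist-only cells, the log2 ratios of mgR to WT were 2.14 for Ccl12, 3.18 for Il1rn and 0.76 for Spic. In Y-only cells they were 0.087 for Hspa1a and 8.72 for Retnla, and that of Retnla against Cx3cr1 Cd72 macrophages in WT was −0.20, where both were at 0 UMIs. The cause was not tested. Depth limits the WT values, which rest on 80 cells and 528305 UMIs. No paired analysis was possible because each genotype had 1 library.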
